A study of Mus musculus with 9 samples.

Results

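The fibroblast growth factors are a family of signalling proteins, and 6 of their genes (Fgf1, Fgf2, Fgf7, Fgf10, Fgf14 and Fgf18) and 3 of their receptor genes (Fgfr1, Fgfr2 and Fgfr3) are described here in the atherosclerotic mouse aorta. The members were every probe set that the platform annotation assigned to 1 of these 9 symbols alone, which gave 20 of the 45037 probe sets that were not controls. Fgf14 had 4 probe sets, Fgf1, Fgfr1 and Fgfr2 had 3 each, Fgf7 and Fgfr3 had 2 each, and Fgf2, Fgf10 and Fgf18 had 1 each. The genes were chosen by signals of these same arrays, with results known, among them the difference of Fgf14 between HDAd-0 and PBS. Their differences are therefore given as a description, and each adjusted p only places a probe set within the whole table.

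All mice were female APOE-/- animals on a C57BL/6 background, which lack apolipoprotein E and develop atherosclerosis. Their age is given as 8 weeks, and they were then fed 0.2% cholesterol and 10% coconut oil for 30 weeks. The PBS group received the phosphate-buffered saline vehicle in the tail vein. The HDAd-0 group received an empty helper-dependent adenovirus, a vector without viral genes, at a dose that the labels write as 5 x 1012 viral particles per kg. The HDAd-gE3 group received the same kind of vector at the same dose, carrying human apolipoprotein E3. Aortas were taken from the sinus to the arch 10 days after the injection. Each group had 3 arrays, each of RNA pooled from 3 aortas, so the spread between arrays is a spread between pools, and in such bulk RNA fewer cells of a type cannot be told apart from less RNA per cell. The comparison of HDAd-0 with PBS addresses the vector itself, that of HDAd-gE3 with HDAd-0 the apolipoprotein E3 cassette, and that of HDAd-gE3 with PBS both together.

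Most fibroblast growth factors are secreted, bind heparan sulphate outside the cell and activate receptor tyrosine kinases, which signal through adaptor proteins to the MAP kinase cascade. Fgf1 and Fgf2 leave the cell without a classical signal peptide and act on smooth muscle, endothelium and fibroblasts. Fgf7 and Fgf10 are made by mesenchymal cells and act on the epithelial splice form of Fgfr2, while Fgf18 acts mainly on cartilage and bone, where Fgfr3 restrains growth. Fgf14 is an exception: it stays inside the cell, does not activate the receptors and binds voltage-gated sodium channels.

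Promoter windows of 7 of the 9 genes were used (RefSeq, GRCm38.p6). Entries on a chromosome left out beforehand were not searched, so the 7 is not a count of all member promoters available. The 250 bases before the start site are shown for Fgf14, the gene whose 3 groups lay apart, and for Fgfr2, the receptor for which HDAd-0 read lowest, since they differ in base composition. Capitals mark matches on either strand to GGGCGG, the GC box, to TATAAA, the TATA box, or to CACGTG, an E-box; no match overlapped another. The Fgf14 window lies at chr14:124192547-124192796 and the Fgfr2 window at chr7:130266809-130267058, both on the minus strand of GRCm38.p6 and written 5′ to 3′.
Fgf14: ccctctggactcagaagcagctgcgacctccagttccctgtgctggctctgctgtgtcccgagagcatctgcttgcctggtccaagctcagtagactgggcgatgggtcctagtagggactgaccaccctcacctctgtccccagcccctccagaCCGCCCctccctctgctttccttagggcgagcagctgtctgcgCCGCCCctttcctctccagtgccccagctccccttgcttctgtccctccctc
Fgfr2: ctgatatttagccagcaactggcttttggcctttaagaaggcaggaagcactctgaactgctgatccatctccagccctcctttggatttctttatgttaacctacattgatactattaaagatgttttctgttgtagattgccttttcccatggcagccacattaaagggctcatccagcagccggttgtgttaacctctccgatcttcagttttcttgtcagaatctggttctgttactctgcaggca

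The Fgf14 window was 64.0% G and C and held 2 GC boxes, and the Fgfr2 window was 44.0% G and C and held none, against a median of 52.4% over 32841 promoter windows of the same length. A GC box was found in 32.7% of all windows, a TATA box in 12.4% and an E-box in 6.02%. Neither window matched TATAAA or CACGTG. Of the other promoters, those of Fgf2, Fgf10 and Fgf18 held 1 GC box each, the 2 windows of Fgfr3 held 3 and 2, and that of Fgf7 held none.

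The deposited values are log2 signals made with RMA, so a difference of 1 is a doubling. Array medians ran from 6.70 to 6.74 with PBS, 6.67 to 6.72 with HDAd-0 and 6.76 to 6.77 with HDAd-gE3, so those of HDAd-gE3 were the highest. The lowest correlation between 2 arrays over the probe sets was 0.991. To show what a probe set reads without its transcript, 44 olfactory receptor probe sets were used; their means ran from 2.36 to 5.09, with a 95th percentile of 4.35. In these female mice 9 probe sets of 3 Y-linked genes read 2.48 to 2.99. Of the 20 member probe sets, 16 read above every olfactory receptor probe set and 3 at or below the 95th percentile. These 3 were the dimmest Fgfr2 probe set (1443211_at) and the 2 dimmest of Fgf14 (1447480_at and 1458830_at). Probe sets differ in affinity, so levels are compared only within a probe set.

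Markers of the aortic wall and of neighbouring tissue were both high. The smooth muscle markers ran from 11.04 (Des) to 14.01 (Tagln) and the endothelial markers from 8.93 (Cdh5) to 12.34 (Vwf). Cardiac muscle markers ran from 11.51 to 13.28, and the brown fat gene Ucp1 read 13.18. The list of 7 measured neutrophil genes averaged 11.33 on HDAd-gE3 replicate 4, against 8.32 to 9.68 on the other 8 arrays. That of 7 liver genes averaged 9.91 on HDAd-0 replicate 5, against 7.55 to 9.07 on the others. With both of these arrays left out, Fgf14 was 0.55 above PBS with HDAd-0, Fgf1 was -0.27 from PBS with HDAd-0 and Fgf2 was 0.53 above PBS with HDAd-gE3, close to the values over all arrays.

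Of the secreted ligands, Fgf1, a heparin-binding mitogen that activates all the receptors, was lower on the HDAd-0 arrays than on all others with its brightest probe set. The brightest Fgf1 probe set (1423136_at) read 11.15, 11.21 and 11.25 with PBS, 10.98, 10.89 and 11.01 with HDAd-0, and 11.26, 11.21 and 11.30 with HDAd-gE3. All 3 HDAd-0 arrays lay below all 6 other arrays, while PBS and HDAd-gE3 overlapped. The difference was -0.25 ± 0.066 (SE) between HDAd-0 and PBS and 0.30 ± 0.066 between HDAd-gE3 and HDAd-0, with limma adjusted p of 0.230 and 0.210. Across all probe sets, 2.47% had HDAd-0 below both other groups without overlap.

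The other Fgf1 probe sets disagreed in part. The second (1450869_at) read 8.13 ± 0.033 (SD, n = 3) with HDAd-0 and 8.32 ± 0.061 with HDAd-gE3, groups that did not overlap, but the PBS arrays at 8.13 to 8.31 overlapped both. The third (1441042_at) was higher with HDAd-gE3 (6.46, 6.54 and 6.51) than with PBS (6.28, 5.99 and 5.86) and HDAd-0 (6.28, 6.28 and 5.99), without overlap, as for 2.26% of all probe sets. Its HDAd-0 arrays were not below those of PBS, and several of its values were exactly equal on different arrays, as they were for 38.3% of all probe sets. The 3 probe sets agreed in sign between HDAd-gE3 and HDAd-0, at 0.30, 0.19 and 0.32. With each array centred on its median these differences were 0.23, 0.12 and 0.25. Between HDAd-0 and PBS they gave -0.25, -0.09 and 0.14, and the mean of the 3 differed by only -0.07.

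**Figure D1:**
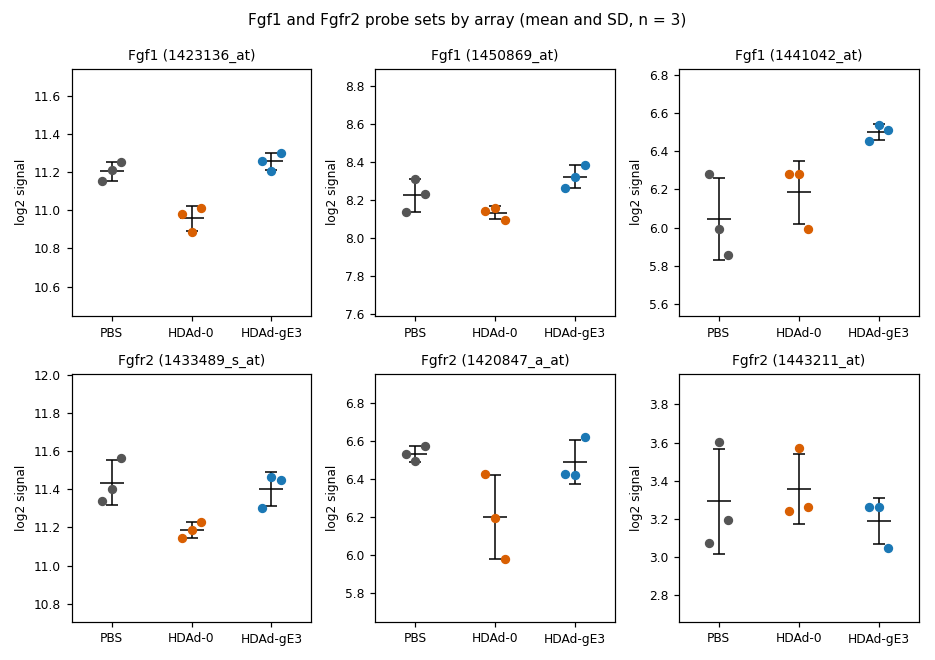
Log2 signal (y axis) of the 3 Fgf1 and the 3 Fgfr2 probe sets on each of the 9 arrays, by group (x axis); points are arrays, bars the mean and SD of 3 arrays, and every panel spans the same number of log2 units. In the brightest probe set of each gene the HDAd-0 arrays lie below all others (10.89 to 11.01 for Fgf1, 11.14 to 11.23 for Fgfr2), which the dimmest probe sets do not show.

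Fgf2, a mitogen of smooth muscle and endothelial cells, had 1 probe set (1449826_a_at), which read 6.31, 6.52 and 5.77 with PBS, 6.30, 6.72 and 6.59 with HDAd-0, and 6.64, 6.82 and 6.78 with HDAd-gE3. The HDAd-gE3 arrays lay above all PBS arrays, and HDAd-0 overlapped both. The difference between HDAd-gE3 and PBS was 0.54 ± 0.19 (SE; limma, adjusted p = 0.359), and 0.33 without PBS replicate 4, the lowest array.

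Fgf7, the keratinocyte growth factor of mesenchymal cells, had group means within 0.14 of each other on its brightest probe set (1438405_at), at 8.98 ± 0.083 with PBS, 9.06 ± 0.090 with HDAd-0 and 9.12 ± 0.080 with HDAd-gE3 (SD, n = 3). These groups overlapped in every comparison. The dimmer Fgf7 probe set (1422243_at) read 5.83, 5.62 and 5.82 with PBS, 6.14, 6.25 and 6.20 with HDAd-0, and 6.24, 6.52 and 5.88 with HDAd-gE3. It was thus lowest on the PBS arrays, without overlap with either vector group, a pattern found for 3.76% of all probe sets. It differed from PBS by 0.44 ± 0.15 (SE) with HDAd-0 and by 0.46 ± 0.15 with HDAd-gE3, against 0.08 ± 0.079 and 0.14 ± 0.079 for the brighter one. Both probe sets thus had the same order of group means, PBS lowest and HDAd-gE3 highest, and differed in size.

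Fgf10, a mesenchymal ligand of Fgfr2 that also acts in fat formation, was dim: its probe set (1420690_at) read 5.50, 5.30 and 5.01 with PBS, 5.61, 5.24 and 5.75 with HDAd-0, and 5.18, 5.26 and 5.24 with HDAd-gE3. The groups overlapped in all 3 comparisons. HDAd-gE3 differed from HDAd-0 by -0.30 with a 95% interval from -0.65 to 0.04. This value was -0.20 without HDAd-0 replicate 5, -0.17 with the replicate number as a block and -0.61 with a covariate for RNA quality, the 3' minus 5' control signal. Fgf10 followed the mean of 7 fat markers over the 9 arrays (r = 0.76, and 0.95 for deviations from group means). With the mean of 8 endothelial markers these values were 0.72 and 0.73, and with that of 8 macrophage markers 0.18 and -0.85. The part of these cells in its values was not tested.

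Fgf18, a ligand of cartilage and bone growth, read 8.12, 7.97 and 7.78 with PBS (1449545_at), 7.57, 8.16 and 7.92 with HDAd-0, and 7.66, 7.71 and 7.57 with HDAd-gE3. PBS and HDAd-gE3 did not overlap, with HDAd-gE3 lower, and the HDAd-0 arrays spanned both. The difference from PBS was -0.31 with a 95% interval from -0.65 to 0.02 (limma, adjusted p = 0.484). The mean of 8 cartilage markers ran from 9.47 to 9.84 with PBS, 8.83 to 9.46 with HDAd-0 and 9.24 to 9.64 with HDAd-gE3, and Fgf18 did not follow it over the 9 arrays (r = -0.24; r = -0.54 for deviations from group means). The neutrophil list (8.60 to 8.89 with PBS, 8.32 to 9.06 with HDAd-0 and 9.57 to 11.33 with HDAd-gE3) and the list of 5 erythroid genes (7.51 to 7.68, 8.09 to 8.69 and 8.56 to 9.98) were apart between HDAd-gE3 and PBS. Fgf18 correlated with them at r = -0.63 and -0.73, and at -0.30 and -0.51 for deviations from group means. Fgf2 correlated with them at r = 0.46 and 0.52, and at 0.03 and -0.28 for deviations. The brightest Fgf7 probe set correlated with them at r = 0.31 and 0.40, and at -0.24 and -0.40 for deviations. With the fibroblast and adventitia markers it gave 0.65 and, for deviations, 0.72. The fat markers gave -0.64 and -0.69, and the macrophage markers 0.10 and 0.77. The dimmer Fgf7 probe set, which lay apart from PBS, was not correlated with the lists. The part of any of these cells in the differences of Fgf2, Fgf7 and Fgf18 between HDAd-gE3 and PBS was not tested.

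**Figure D2:**
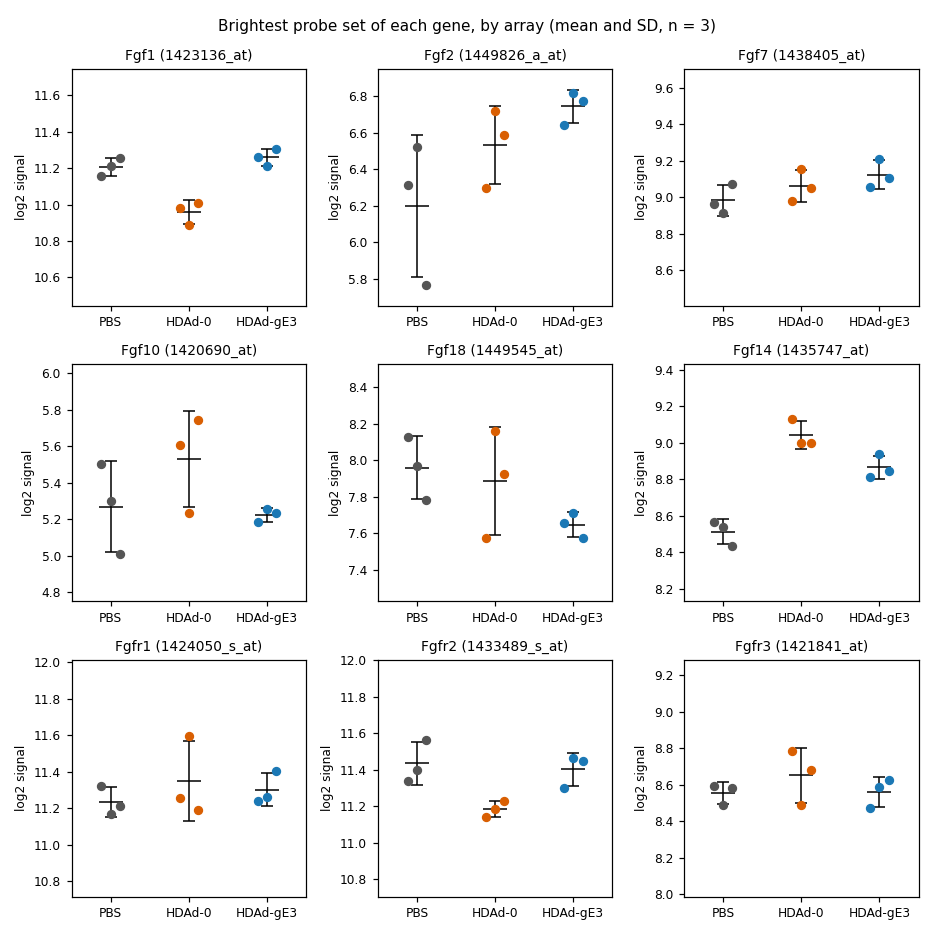
Log2 signal (y axis) of the brightest probe set of each of the 9 genes on each array, by group (x axis); points are arrays, bars the mean and SD of 3 arrays, and every panel spans the same number of log2 units. For Fgf14 all 3 groups lie apart, in Fgf1 and Fgfr2 the HDAd-0 arrays lie lowest, and for Fgf7, Fgf10, Fgfr1 and Fgfr3 all groups overlap.

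Fgf14, the intracellular partner of sodium channels, was the member with the largest difference relative to its error. Its brightest probe set (1435747_at) read 8.57, 8.54 and 8.43 with PBS, 8.81, 8.94 and 8.85 with HDAd-gE3, and 9.13, 9.0 and 9.0 with HDAd-0. No group overlapped another, with PBS lowest and HDAd-0 highest; 0.364% of all probe sets had that order without overlap, and 1.37% had 3 groups apart in any order. HDAd-0 was 1.44-fold above PBS, a difference of 0.53 ± 0.072 (SE; 95% interval 0.37 to 0.69), and HDAd-gE3 was 0.35 ± 0.072 above PBS and -0.18 ± 0.072 from HDAd-0.

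None of the 3 Fgf14 differences passed the threshold of 0.05 over all probe sets (limma, adjusted p = 0.0821, 0.162 and 0.368). With 1 probe set a gene, tested over 18193 genes, the difference between HDAd-0 and PBS passed (limma, adjusted p = 0.0478). It also passed among the probe sets above the median level (limma, adjusted p = 0.0391) and without HDAd-0 replicate 4 (0.0330). Without any other 1 array the adjusted p lay between 0.140 and 0.299. More of the whole table passed in these settings too. Above the median level 35 of 22518 probe sets passed, and without HDAd-0 replicate 4 542 of 45037, against 4 of 45037 in the main fit. The Fgf14 difference between HDAd-0 and PBS stayed between 0.49 and 0.56 whichever array was left out. With array weights the difference between HDAd-gE3 and PBS passed as well, at 0.37 (limma, adjusted p = 0.0467). In that setting 279 of 45037 probe sets passed, against 1 without weights.

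The other 3 Fgf14 probe sets did not show this order. One (1449958_a_at) read 4.71, 5.13 and 4.71 with PBS, 4.97, 4.85 and 4.83 with HDAd-0, and 4.51, 4.60 and 4.86 with HDAd-gE3, and its groups overlapped in every comparison. Another (1458830_at) read 4.42, 3.92 and 4.02 with PBS, 3.11, 2.94 and 3.50 with HDAd-0, and 5.43, 4.18 and 3.75 with HDAd-gE3. Here the HDAd-0 arrays were below all others, opposite to the brightest probe set, at a signal within the range of the olfactory receptors. The last (1447480_at) ran from 2.78 to 4.92 and overlapped throughout. Over the 9 arrays the brightest probe set correlated with the others at r = 0.03, -0.48 and -0.45, while the 2 dimmest correlated with each other at r = 0.76. The mean of all 4 probe sets differed by -0.24 between HDAd-0 and PBS and by 0.38 between HDAd-gE3 and HDAd-0, so averaging the probe sets turned both directions. That mean includes the 3 dimmer probe sets, whose means over all arrays of 4.80, 4.06 and 3.92 lie within the range of the olfactory receptors. The sources used here do not say which Fgf14 transcripts each probe set detects.

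**Figure D3:**
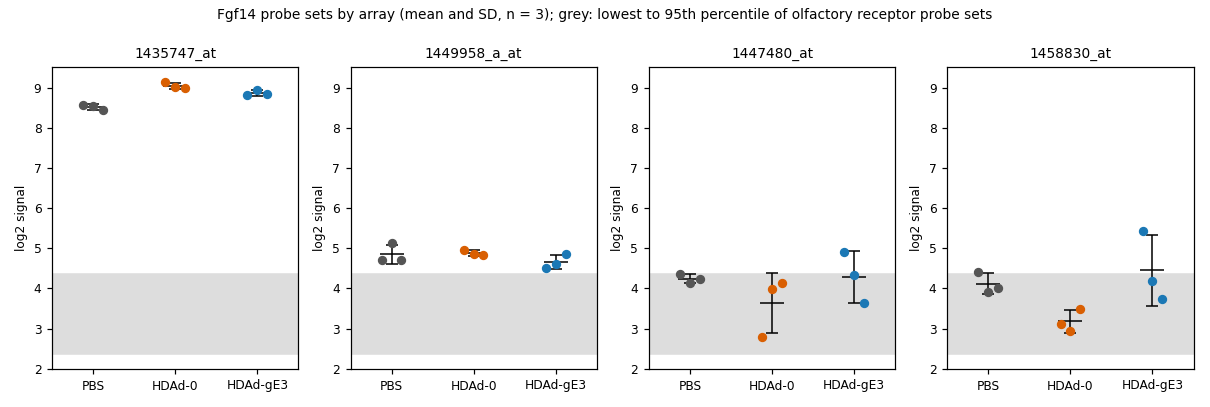
Log2 signal (y axis) of the 4 Fgf14 probe sets on each array, by group (x axis); points are arrays, bars the mean and SD of 3 arrays, and the grey band runs from the lowest olfactory receptor probe set (2.36) to their 95th percentile (4.35). The brightest probe set reads 8.43 to 9.13 with the groups apart, and the 2 dimmest lie mostly inside the band.

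Among the receptors, Fgfr2, which in its mesenchymal and epithelial splice forms binds different ligands, had the same pattern as Fgf1. The brightest Fgfr2 probe set (1433489_s_at) read 11.34, 11.40 and 11.57 with PBS, 11.14, 11.19 and 11.23 with HDAd-0, and 11.30, 11.46 and 11.45 with HDAd-gE3. The HDAd-0 arrays lay below all 6 others, and PBS and HDAd-gE3 overlapped. The differences were -0.25 ± 0.081 (SE) between HDAd-0 and PBS and 0.22 ± 0.081 between HDAd-gE3 and HDAd-0 (limma, adjusted p = 0.294 and 0.343). The second Fgfr2 probe set (1420847_a_at) leaned the same way, by -0.33 ± 0.11 and 0.29 ± 0.11; its HDAd-0 arrays at 6.42, 6.19 and 5.98 lay below PBS (6.53, 6.49 and 6.57) but overlapped HDAd-gE3 (6.42, 6.42 and 6.62). With the array high in liver genes and the array high in neutrophil genes both left out, the latter difference was 0.11, while that of the brightest probe set was 0.22. The dimmest Fgfr2 probe set read 3.05 to 3.60, within the range of the olfactory receptors, and overlapped throughout.

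Fgfr1, the main receptor of mesenchymal and vascular cells, overlapped between all groups on each of its 3 probe sets. The brightest (1424050_s_at) read 11.32, 11.17 and 11.21 with PBS, 11.26, 11.60 and 11.19 with HDAd-0, and 11.24, 11.26 and 11.40 with HDAd-gE3, with HDAd-0 replicate 4 the highest array. Its differences lay between -0.05 and 0.12. A second Fgfr1 probe set (1436551_at) read 9.20, 9.23 and 9.49 with PBS, 9.47, 9.48 and 9.42 with HDAd-0, and 9.46, 9.51 and 9.59 with HDAd-gE3. It was 0.21 ± 0.088 (SE) higher in mean with HDAd-gE3 than with PBS, where PBS replicate 4 lay inside the HDAd-gE3 range. The third (1425911_a_at) differed by 0.08, 0.17 and 0.09 in the comparisons of HDAd-0 with PBS, HDAd-gE3 with PBS and HDAd-gE3 with HDAd-0.

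Fgfr3, a receptor best known for restraining cartilage growth, read 8.59, 8.49 and 8.58 with PBS, 8.78, 8.49 and 8.68 with HDAd-0, and 8.47, 8.59 and 8.63 with HDAd-gE3 on its brighter probe set (1421841_at). Its groups overlapped in all comparisons, and the 95% interval of the difference between HDAd-gE3 and PBS ran from -0.20 to 0.21. The dimmer Fgfr3 probe set (1425796_a_at) ran from 5.26 to 5.84 and overlapped as well.

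No member probe set passed the limma threshold over all 45037 probe sets in any of the 3 comparisons. Over all probe sets 0.00888% passed in HDAd-0 against PBS, 0.00222% in HDAd-gE3 against PBS and 0% in HDAd-gE3 against HDAd-0. At an unadjusted p under 0.05, 2 member probe sets were higher and 4 lower in HDAd-0 against PBS (limma), where 6.59% of all probe sets were higher and 5.75% lower, 12.3% together. In HDAd-gE3 against PBS 5 were higher and 0 lower, where 5.54% of all were higher and 5.47% lower, 11% together. In HDAd-gE3 against HDAd-0 6 were higher and 1 lower, where 6.08% of all were higher and 6.76% lower, 12.8% together. The arrays did not overlap for 2 higher and 4 lower member probe sets in HDAd-0 against PBS, where 16.9% of all did not (9.43% higher and 7.46% lower). They did not overlap for 4 higher and 1 lower in HDAd-gE3 against PBS, where 20.8% did not (10.6% and 10.3%), and for 5 higher and 1 lower in HDAd-gE3 against HDAd-0, where 15.9% did not (6.3% and 9.56%). Because the genes were chosen with these results known, and probe sets of a gene share their transcript, nothing is read from these shares. With 1 probe set a gene, 1 member (Fgf14) passed in HDAd-0 against PBS, where 0.066% of genes did, and 0 in the others, where 0.126% did for HDAd-gE3 against PBS and 0.0055% for HDAd-gE3 against HDAd-0. The 3 comparisons share their groups pairwise, so a low or high HDAd-0 group enters 2 of them.

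**Figure D4:**
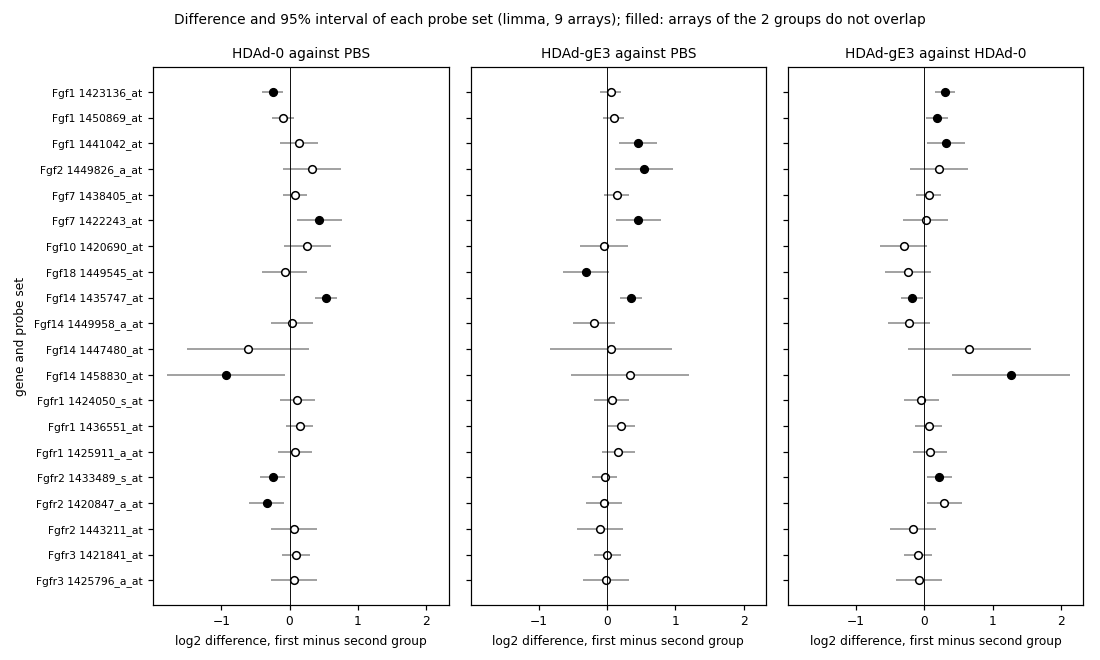
Log2 difference (x axis, first minus second group) of each of the 20 member probe sets (y axis) in the 3 comparisons; bars are 95% intervals from limma over 9 arrays, and filled points mark probe sets whose arrays do not overlap between the 2 groups. The intervals of the 2 dimmest Fgf14 probe sets are the widest, and the Fgf14 probe set 1435747_at lies at 0.53 in HDAd-0 against PBS.

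Marker lists of several cell types moved between the same groups. The mean of 8 endothelial markers ran from 10.21 to 10.31 with PBS, 10.34 to 10.51 with HDAd-gE3 and 10.55 to 10.84 with HDAd-0, the same order as Fgf14, and 8 of 8 were higher in mean with HDAd-0 than with PBS. The 8 smooth muscle markers averaged 12.59 to 12.62 with PBS, 12.42 to 12.51 with HDAd-0 and 12.61 to 12.66 with HDAd-gE3, lowest with HDAd-0 like Fgf1 and Fgfr2, and 7 of 8 were lower in mean with HDAd-0 than with PBS. The 8 cardiac muscle markers averaged 13.10 to 13.16 with PBS, 11.95 to 12.76 with HDAd-0 and 12.62 to 13.51 with HDAd-gE3, and 8 of 8 were lower in mean with HDAd-0 than with PBS. The 8 macrophage markers averaged 11.53 to 11.60 with PBS, 11.62 to 11.76 with HDAd-0 and 11.46 to 11.51 with HDAd-gE3, highest with HDAd-0 where Fgf1 was lowest. The 7 liver genes averaged 7.55 to 8.01 with PBS, 8.45 to 9.91 with HDAd-0 and 7.95 to 8.74 with HDAd-gE3, and 7 of 7 were higher in mean with HDAd-0 than with PBS. None of these list members passed the limma threshold over all probe sets, and none read as low as the 95th percentile of the olfactory receptors. The part of these cells in the Fgf1, Fgf14 and Fgfr2 differences was not tested. Over the 9 arrays Fgf14 correlated with the endothelial list at r = 0.87 and with the liver list at r = 0.73, and as deviations from the group means at 0.29 and -0.07. Fgf1 correlated with the smooth muscle list at r = 0.83 and with the macrophage list at r = -0.85, and as deviations at -0.35 and -0.37. For Fgfr2 and the smooth muscle list these values were 0.64 and -0.50. With the cardiac muscle list they were 0.78 and 0.18 for Fgf1, 0.61 and -0.20 for Fgfr2, and -0.65 and -0.22 for Fgf14. With the cartilage list Fgfr2 gave 0.74 and 0.58, and with the endothelial list -0.76 and -0.18. The part of cartilage in the Fgfr2 differences was not tested either. For Fgfr1 and the mean of 7 fibroblast and adventitia markers the values were 0.86 and 0.84. The 3' minus 5' control signal ran from 0.78 to 0.92 with PBS, 0.76 to 1.08 with HDAd-0 and 0.67 to 0.81 with HDAd-gE3. With it as a covariate the Fgf14 difference between HDAd-0 and PBS was 0.54. In HDAd-gE3 against HDAd-0 the second Fgfr2 probe set then differed by 0.45 in place of 0.29, and the brightest Fgfr1 probe set by 0.12 in place of -0.05.

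The genes whose brightest probe sets followed the members most closely over the 9 arrays are named as a description; 18184 genes were compared, and arrays of a group share their treatment. For Fgf14 these were Lefty1 (r = 0.98), Acvrl1, an endothelial receptor of the TGF-beta family (r = 0.97), and Pdlim2 (r = 0.96), with 54 genes above r = 0.9. For Fgf1 they were Stk39 (r = 0.96), Cap2 (r = 0.96) and Ptges3l (r = 0.94), with 10 genes above 0.9. Fgfr2 was followed by Esyt2 (r = 0.97), Nfat5 (r = 0.95) and Lmna (r = 0.95), and Fgf2 by Rpl19, Cdc123 and Kdm8 (each r = 0.96). Among the members themselves Fgf1 and Fgfr2 correlated at r = 0.83 and Fgf14 and Fgfr2 at r = -0.72.

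Of 78 other genes of the pathway that were listed, 69 were measured: further ligands, co-receptors, heparan sulphate proteoglycans and their enzymes, adaptors and kinases, feedback inhibitors and target genes, and sodium channels. None passed the limma threshold over all probe sets, or with 1 probe set a gene, in any comparison. At an unadjusted p under 0.05, 5 were higher and 4 lower in HDAd-0 against PBS (13.0% of the 69, against 11.7% of all genes), 2 higher and 2 lower in HDAd-gE3 against PBS (5.80% against 11.9%), and 5 higher and 7 lower in HDAd-gE3 against HDAd-0 (17.4% against 11.5%). The median difference of the list was 0.02, 0.01 and -0.01 in these comparisons, and 0.02, -0.02 and -0.04 over all genes. Of the list, 13 measured genes were feedback inhibitors and targets, the Spry, Spred, Dusp and Etv genes among them. At that p 2 of the 13 were higher and 0 lower in HDAd-0 against PBS (15.4%). In HDAd-gE3 against PBS 1 was higher and 0 lower (7.69%), and in HDAd-gE3 against HDAd-0 1 and 1 (15.4%). The shares of all genes are those just given.

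The largest difference among the named pathway genes was that of Fgf12, another intracellular factor, which is abundant in heart. Fgf12 read 8.57, 8.84 and 8.51 with PBS, 7.53, 5.63 and 8.24 with HDAd-0, and 10.49, 9.23 and 8.53 with HDAd-gE3. It was 2.29 ± 0.66 (SE) higher in mean with HDAd-gE3 than with HDAd-0, without overlap (limma, adjusted p = 0.259), and the SD among the HDAd-0 arrays was 1.35. Fgf12 followed the cardiac muscle list over the 9 arrays (r = 0.89; r = 0.85 for deviations from group means). Gpc1, a glypican that carries heparan sulphate, followed it more closely (r = 0.99) and was -0.30 ± 0.11 from PBS with HDAd-0; the part of cardiac tissue in both was not tested.

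**Figure D5:**
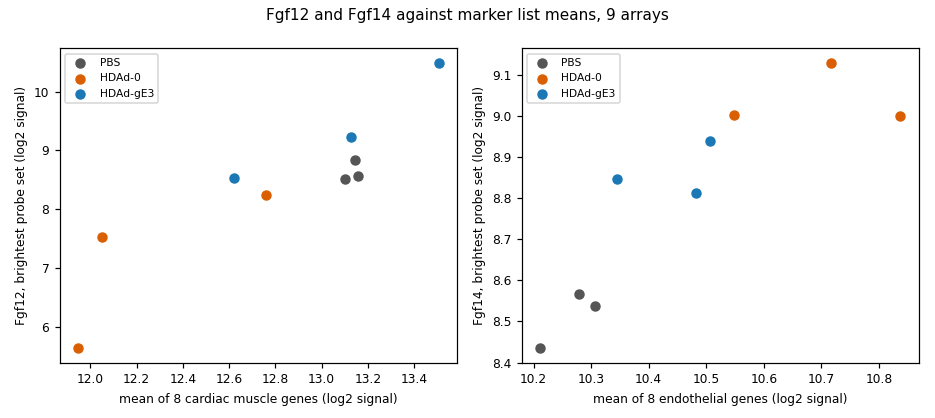
Log2 signal of the brightest Fgf12 probe set against the mean of 8 cardiac muscle genes (left) and of the brightest Fgf14 probe set against the mean of 8 endothelial genes (right); each point is 1 of the 9 arrays, coloured by group. Over all arrays Fgf12 is lowest where the cardiac mean is lowest and highest where it is highest (5.63 and 10.49), and the Fgf14 groups lie apart (8.43 to 8.57, 8.81 to 8.94 and 9.0 to 9.13).

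Braf, a kinase of the MAP kinase cascade, read 10.89, 10.83 and 10.87 with PBS, 10.49, 10.42 and 10.69 with HDAd-0, and 10.78, 10.94 and 10.95 with HDAd-gE3, lowest on the HDAd-0 arrays. Its difference was -0.33 ± 0.086 (SE) between HDAd-0 and PBS and 0.36 ± 0.086 between HDAd-gE3 and HDAd-0 (limma, adjusted p = 0.223 and 0.220). Fgf4, an embryonic ligand, differed by 0.35 ± 0.098 and -0.40 ± 0.098 in the same comparisons, at a signal of 4.45 to 4.99 that lay within the range of the olfactory receptors. In HDAd-gE3 against PBS the smallest p belonged to Ext2, a heparan sulphate polymerase (0.38 ± 0.14), Dusp5, a phosphatase of ERK (0.46 ± 0.18), and Flrt2, a membrane protein that binds the receptors (-0.21 ± 0.083), none past the threshold.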

How the data were processed

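Pooled RNA of 3 aortas was amplified (FL-Ovation) and biotinylated, per the labels' protocols, and measured on 9 Affymetrix mouse arrays. The authors deposited log2 signals made with RMA (background correction, quantile normalization and probe set summaries), per the submitters' processing notes; the log2 scale was read from the values, and no version is given in the sources used here. Quantile normalization gives the probe values of all arrays 1 distribution, which hides a change common to most genes. Probe set summaries come after it, and the array medians of the deposited values still ran from 6.67 to 6.77.

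In the platform annotation 34945 probe sets had 1 gene, 932 had several, 9160 had none and 64 were controls; 34741 were named by gene identifier through RefSeq genes of GRCm38.p6. Linear models were fitted to all 45037 probe sets and all 9 arrays (lmFit and eBayes, limma 3.58.1, R 4.3.3; 6 residual degrees of freedom), with no filter, with Benjamini-Hochberg adjustment of p. Adjusted p in the text come from these fits. The procedure was also run on simulated data with independent errors and shifts added in HDAd-0, without variation shared between genes. No result given here rests on that run. An exact permutation test of 3 against 3 cannot give a p under 0.1. Group and replicate numbers come from the labels, which do not say how pools were processed; running numbers in the titles do not interleave between groups, so order cannot be told apart from group. The members, gene lists and tests were chosen with earlier results of these data known. The text names the brightest probe set of each member and any other with an unadjusted p under 0.05, pathway genes with the 3 smallest p in a comparison, and the 3 genes most like a member with such a p. The 9 listed pathway genes without a usable probe set were not analysed here. Alternatives were other scalings, a dim filter, 1 probe set or the mean per gene, array weights, the replicate number as a block, an intensity trend, 2 groups only, other thresholds, a covariate and leaving out arrays. Figures were drawn with matplotlib 3.10.9.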

Additional observations from a re-analysis of the deposited data

How the results depend on the processing

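The count of member probe sets past the threshold was 0 in each comparison. In HDAd-0 against PBS it was 1, which was Fgf14, among probe sets above the median level, with 1 probe set a gene and at an adjusted p under 0.1. It ranged from 0 to 1 when 1 array was left out. Of all features, 35 of 22518, 12 of 18193 and 47 of 45037 passed in those 3 settings, against 4 of 45037 in the main fit. Without HDAd-0 replicate 4, where Fgf14 passed, 542 of 45037 did. In HDAd-gE3 against PBS the count of members was 1, again Fgf14, with array weights. In that setting 279 of all 45037 probe sets passed, in place of 1. The count of pathway genes was 0 in every comparison under every alternative run. With each array centred on its median, 4 member probe sets in place of 7 had an unadjusted p under 0.05 (limma) in HDAd-gE3 against HDAd-0. Over all probe sets 7881 in place of 5781 had such a p there. Of 936 member differences under the alternatives, 914 moved by less than 1 SD of the arrays and 32 changed sign. Many of the 936 could not move, so the 914 is no measure of stability. Other thresholds, an intensity trend, a dim filter and 2 groups only keep a difference as it is. So do 1 probe set a gene and leaving out an array of neither compared group. The replicate block changed no count (0 in each comparison; Fgf14 in HDAd-0 against PBS 0.58, limma adjusted p = 0.479). Only the numbers 3 and 4 occur in every group, and deviations of same-numbered arrays correlated at 0.01 to 0.13, so the numbers were not taken as pairs. With HDAd-0 replicate 5 and HDAd-gE3 replicate 4 left out, an alternative chosen after seeing the data, no member passed and Fgf14 differed by 0.55 (limma, adjusted p = 0.173). With 3 arrays a group and probe sets near the signal of absent transcripts, small differences of dim members are not resolved.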
